A study of Homo sapiens with 4 samples.

Results

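The 8 genes described here carry the machinery by which a cell senses its sterols and adjusts the supply of lipid: INSIG1, INSIG2, SCAP, SREBF1, SREBF2, MBTPS1, MBTPS2 and VLDLR. They were taken by gene symbol from the rows of the expression table that lie on a numbered or sex chromosome, and the rule itself used no measured value. The 8 genes were nevertheless chosen with earlier results of these data known, as were the lists below. The table holds 62077 rows, and all 8 genes were among the 15057 with a mean of at least 1 FPKM over the libraries. FPKM is fragments per kilobase of exon scaled to the fragments mapped in the library, a level scaled by length, so values can be compared between genes.

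RNA-Seq was performed on FaDu cells, an established line of squamous carcinoma cells from the hypopharynx, in 4 libraries with 1 library per group. N-scr and H-scr were cells that received a scrambled control hairpin, kept in normoxia or in hypoxia (1% O2, 5% CO2, 94% N2 for 19 h). N-si and H-si were cells with TET1 knocked down (TET1-si), kept in the same 2 oxygen states. Both kinds of cell had been infected with a lentivirus that expresses a short hairpin RNA and confers resistance to puromycin, and the sources list 1 hairpin sequence against TET1, so effects of the hairpin on other genes cannot be told apart from effects of TET1. TET1 is the dioxygenase that oxidises 5-methylcytosine in DNA to 5-hydroxymethylcytosine. No group had a replicate. Differences below are therefore between single libraries, no test or p-value is given, and each interval is a 95% interval of counting error alone, computed from approximate reads.

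When sterols are plentiful in the membrane of the endoplasmic reticulum, the INSIG proteins hold the escort protein SCAP there, together with the SREBP precursors that SCAP carries. When sterols fall, SCAP takes the precursors to the Golgi apparatus, where the site-1 protease (MBTPS1) and then the site-2 protease (MBTPS2) cut them and free the part that enters the nucleus and activates transcription. SREBP-2, made from SREBF2, acts mainly on genes of cholesterol synthesis and uptake, SREBP-1, made from SREBF1, mainly on genes of fatty acid synthesis, and INSIG1 and both SREBF genes are themselves known SREBP targets.

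TET1 itself was measured under normoxia at 0.129 FPKM in scrambled and 0.0493 in TET1-si cells, and under hypoxia at 0.331 and 0.122, so both TET1-si libraries lay below the scrambled library of the same oxygen state. These rested on approximately 28, 11, 76 and 26 reads. The hairpin target is shown because it defines the TET1-si cells (21 bases, lower case throughout):
TET1-si target, chr10:70451833-70451853 (GRCh37, plus strand): ccttgatagaatcactcagtt
It matched chromosome 10 once, in exon 12 of the canonical TET1 transcript, in the untranslated part. Recovered depths ran from 22500000 reads for H-si to 24500000 for H-scr. All 11 epithelial and squamous markers were at 1 FPKM or more in both scrambled libraries, 9 in N-si, 10 in H-si, and their summed level was 7821 FPKM for N-scr, 10655 for H-scr, 2805 for N-si and 4741 for H-si. Keratins made up most of that sum. Of the 11 markers, 8 were lower in both TET1-si libraries than in their scrambled counterparts, 2 (CDH1 and EPCAM) were higher in both, and 1 (DSP) was mixed. Among the 8, KRT14 was at 42.1 FPKM for N-scr, 99.9 for H-scr, 0.487 for N-si and 1.41 for H-si. KRT6A was at 67.7, 109.2, 0.394 and 0.357 FPKM in the same order, so both were nearly absent from N-si and H-si. Leukocyte markers summed to at most 26.9 FPKM, fibroblast markers to at most 37.2 and endothelial markers to at most 48.4. These highest sums, all in H-si, were each mostly 1 gene: CD68 at 26.8 FPKM, COL1A1 at 37.0 and CDH5 at 45.5. In bulk RNA, fewer cells of a kind and less RNA per cell cannot be told apart, and the part of these marker levels in the TET1-si differences below was not tested. Of 10 genes known to be induced by hypoxia, 9 passed 2-fold upward in hypoxia in scrambled cells and 8 did so in TET1-si cells.

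Hypoxia was accompanied by a level at least 2-fold higher in scrambled cells for 4 of the 8 genes (INSIG1, SREBF1, SREBF2 and VLDLR) and none was 2-fold lower. Over all 15057 genes, 12.9% passed 2-fold upward and 4.53% downward in this contrast. In TET1-si cells 1 of the 8, INSIG1, was at least 2-fold higher in hypoxia and none was lower, against 12.5% and 8.66% of all genes. With hypoxia held constant, TET1-si cells had 2 of the 8 at least 2-fold lower, INSIG1 and SREBF2, and none higher, against 8.35% of all genes lower and 12% higher. Under normoxia none of the 8 differed by 2-fold between TET1-si and scrambled cells, whereas 12.1% of all genes were higher and 5.56% lower. The median change of the 8 genes was 1.03 for the hypoxia response of scrambled cells, 0.62 for that of TET1-si cells, and with TET1-si it was -0.62 in hypoxia and -0.15 in normoxia. All changes are on the log2(FPKM + 0.1) scale, on which 1 is 2-fold, and the medians of all genes were 0.05, 0.03, 0.10 and 0.15. H-scr enters both the hypoxia response of scrambled cells and the TET1-si response under hypoxia, so these contrasts are not independent of each other. With 8 genes, these shares are a description of the set and not a test of it.

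**Figure D1:**
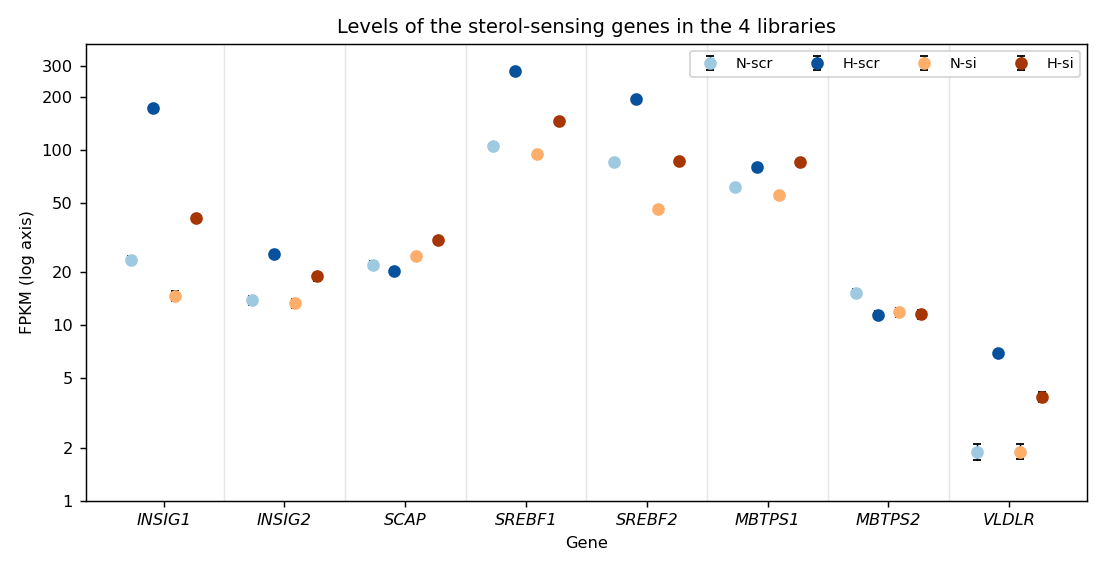
FPKM of the 8 genes on a log axis in N-scr, H-scr, N-si and H-si (1 library each), with bars for the 95% counting interval. H-scr is the highest of the 4 libraries for INSIG1, INSIG2, SREBF1, SREBF2 and VLDLR, and INSIG1 spans the widest range, from 14.7 in N-si to 171.9 in H-scr.

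The stretches before the starts of the 4 genes that were higher in hypoxia, and of SCAP, which was not, are shown so that the letters known to be read by SREBP, by the hypoxia-inducible factors and by NF-Y can be set beside the levels. Each holds the 250 bases before a RefSeq start, with its place in GRCh37. Capitals mark matches, on either strand, to an SRE-like element (TCACNCCAC), to the hypoxia response element core (ACGTG or GCGTG) and to the CCAAT box (CCAAT):
INSIG1, chr7:155089338-155089587, plus strand: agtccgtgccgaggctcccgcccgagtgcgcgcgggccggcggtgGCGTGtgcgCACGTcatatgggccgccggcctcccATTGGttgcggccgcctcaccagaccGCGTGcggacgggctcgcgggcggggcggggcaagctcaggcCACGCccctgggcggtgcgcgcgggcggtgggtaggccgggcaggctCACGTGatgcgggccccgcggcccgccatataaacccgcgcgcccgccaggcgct
SREBF1, chr17:17740301-17740550, minus strand: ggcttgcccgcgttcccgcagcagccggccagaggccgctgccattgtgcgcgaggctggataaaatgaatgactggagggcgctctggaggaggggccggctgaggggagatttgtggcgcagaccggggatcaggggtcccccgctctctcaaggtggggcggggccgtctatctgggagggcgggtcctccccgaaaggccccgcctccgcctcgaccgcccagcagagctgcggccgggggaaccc
SREBF2, chr22:42228859-42229108, plus strand: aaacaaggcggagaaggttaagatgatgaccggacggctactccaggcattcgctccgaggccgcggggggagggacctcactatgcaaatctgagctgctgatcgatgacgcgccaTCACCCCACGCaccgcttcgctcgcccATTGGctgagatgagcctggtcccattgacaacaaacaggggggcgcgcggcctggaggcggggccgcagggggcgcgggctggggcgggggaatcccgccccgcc
VLDLR, chr9:2621537-2621786, plus strand: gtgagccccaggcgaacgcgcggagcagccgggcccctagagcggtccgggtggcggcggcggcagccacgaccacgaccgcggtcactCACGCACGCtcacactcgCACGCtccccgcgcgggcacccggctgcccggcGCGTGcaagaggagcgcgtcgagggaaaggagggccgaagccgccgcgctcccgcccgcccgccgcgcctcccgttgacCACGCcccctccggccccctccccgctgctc
SCAP, chr3:47517432-47517681, minus strand: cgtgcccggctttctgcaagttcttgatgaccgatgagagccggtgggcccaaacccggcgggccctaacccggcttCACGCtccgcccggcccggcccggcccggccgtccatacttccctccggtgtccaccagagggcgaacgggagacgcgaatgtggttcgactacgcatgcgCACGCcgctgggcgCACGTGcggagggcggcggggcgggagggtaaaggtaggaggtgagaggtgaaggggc
Matches were counted in these bases plus the first 50 after the start, and positions count back from the start. Of the windows of all 8 genes, that of SREBF2 alone held an SRE-like match, at -133 to -125, and a CCAAT box followed it at -106 to -102. Such a match was present in 1.128% of 35116 RefSeq windows of the same length, and a CCAAT box in 34.614%. For SREBF1 a single start was scanned, 25 bases inside the outer end of the locus. The SREBP-1a and SREBP-1c transcripts start at different first exons, so this window does not cover both.

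INSIG1 held 3 matches to ACGTG, of which the last 2 are the 2 strands of 1 palindrome, CACGTG, at -55 to -50. It also held 3 matches to GCGTG and a CCAAT box at -170 to -166. SCAP, which was not higher in hypoxia in scrambled cells, held the same palindrome at -58 to -53. Its RefSeq start lay 1185 bases inside the measured locus, so its window does not stand at the outer end of that locus. ACGTG was present in 21.409% of all windows, GCGTG in 36.542% and CACGTG in 7.256%. VLDLR held 5 matches to GCGTG and none to ACGTG, and SREBF1 held neither. SCAP also held 3 matches to GCGTG, and MBTPS1, which stayed under 2-fold, held 4. SREBF2 held 1, at -127 to -123, which overlaps its SRE-like match. Each INSIG2 window held 1 and MBTPS2 held none. The INSIG1 and VLDLR windows were rich in CG dinucleotides, with 48 and 49, against a median of 14 over all windows and quartiles of 4 and 28. SREBF2 held 31, SCAP 36 and SREBF1 28. A match is a string of letters and not a bound site, and the window covers only part of what can control a gene.

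INSIG1, one of a pair of INSIG proteins and the one whose gene is strongly driven by SREBP, had the largest changes of the 8 genes in 4 of 5 comparisons. The gene (ENSG00000186480) spans 155089486 to 155101945 of chromosome 7, plus strand, in hg19. Its level was 23.7 FPKM for N-scr, 171.9 for H-scr, 14.7 for N-si and 40.7 for H-si. H-scr stood far above the other 3 libraries, and the counting intervals of the 4 libraries did not overlap. In scrambled cells hypoxia was accompanied by a 7.26-fold higher level (log2 change 2.86, interval of the ratio 2.78 to 2.94), and 243 of 15057 genes, INSIG1 included, were as high in this contrast. In TET1-si cells it was 2.76-fold higher in hypoxia (log2 change 1.46, interval 1.36 to 1.57). The hypoxia response was thus present in both kinds of cell and smaller in TET1-si cells, by 1.40 on the log2 scale (difference -1.40, normal interval -1.53 to -1.26).

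Between kinds of cell, INSIG1 was lower in TET1-si in both oxygen states. The log2 change was -2.08 under hypoxia (interval -2.14 to -2.02), and 340 genes were as low. Under normoxia it was -0.68 (interval -0.80 to -0.57). The level in H-si, 40.7 FPKM, remained above that of N-scr.

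INSIG2, the second INSIG protein, which binds SCAP in the same way, followed the same order of libraries over a much narrower range. It (ENSG00000125629, chromosome 2, 118846028 to 118868573, plus strand) was measured at 13.9 FPKM for N-scr, 25.4 for H-scr, 13.3 for N-si and 19.0 for H-si. The hypoxia response was 0.87 in scrambled cells (interval 0.77 to 0.98) and 0.50 in TET1-si cells (0.39 to 0.62), both under 2-fold. With TET1-si it was lower under hypoxia by 1.34-fold (log2 change -0.42), whereas the counting interval under normoxia, -0.18 to 0.07, included 0.

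The balance between the INSIG transcripts shifted with both factors. INSIG1 made up 63.1% of the summed INSIG level for N-scr, 87.1% for H-scr, 52.5% for N-si and 68.2% for H-si. In N-si the counting intervals of INSIG1 and INSIG2 overlapped, so their order there was not separated by more than counting error.

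SCAP, the escort protein and sterol sensor, had the highest TET1-si response of the 8 genes in both oxygen states. SCAP (ENSG00000114650, chromosome 3, 47455203 to 47518616, minus strand) stood at 22.1 FPKM for N-scr, 20.3 for H-scr, 24.7 for N-si and 30.4 for H-si. Hypoxia was accompanied by a change of -0.12 in scrambled cells (interval -0.21 to -0.03) and of 0.30 in TET1-si cells (0.22 to 0.38). As TPM the value of -0.12 came to -0.0039. Under hypoxia the TET1-si level was 1.49-fold the scrambled level (log2 change 0.58). Under normoxia the change was 0.16, and median-of-ratios scaling brought it to -0.0070.

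Since the INSIG proteins act by binding SCAP, the ratio of their summed transcript level to that of SCAP was computed. It was 1.70 for N-scr, 9.70 for H-scr, 1.14 for N-si and 1.96 for H-si. A ratio within a library does not depend on how the library was scaled. In scrambled cells the ratio in hypoxia lay well above that in normoxia, and in TET1-si cells the hypoxia value lay close to that of N-scr. These are transcripts, and protein was not measured here.

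Both SREBF genes, which encode the SREBP precursors, were higher in hypoxia in scrambled cells. SREBF1 (ENSG00000072310, chromosome 17, 17713713 to 17740325, minus strand) was the highest of the 8 genes in all 4 libraries, with 105.0 FPKM for N-scr, 280.3 for H-scr, 94.9 for N-si and 144.8 for H-si. Its hypoxia response was 1.42 in scrambled cells (interval 1.39 to 1.45) and 0.61 in TET1-si cells (0.58 to 0.65), a difference of -0.81 (-0.85 to -0.76). TET1-si was accompanied by a change of -0.95 under hypoxia, just short of 2-fold, and of -0.15 under normoxia. Median-of-ratios and upper-quartile scaling moved the value under hypoxia past 2-fold, to -1.10 and -1.01.

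The gene-level value does not separate the SREBP-1a and SREBP-1c transcripts, which start at different first exons. The SREBF1 locus overlaps the end of RAI1 on the other strand, and no source says that the libraries kept strand. RAI1 was measured at 17.9 FPKM for N-scr, 19.5 for H-scr, 26.3 for N-si and 36.9 for H-si, so it was higher in TET1-si cells where SREBF1 was lower.

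SREBF2 (ENSG00000198911, chromosome 22, 42229109 to 42303312, plus strand) was lower in TET1-si than in scrambled cells in both oxygen states. Its level was 84.9 FPKM for N-scr, 193.4 for H-scr, 46.1 for N-si and 85.8 for H-si, so that H-si and N-scr lay side by side with overlapping intervals. The TET1-si response was -1.17 under hypoxia (interval -1.21 to -1.14) and -0.88 under normoxia (-0.93 to -0.83). In hypoxia it was higher by 1.19 among scrambled cells and by 0.90 among TET1-si cells, and the difference, -0.29 (-0.35 to -0.23), was smaller than that of INSIG1, SREBF1 or VLDLR. The value of 0.90 reached 2-fold under upper-quartile scaling (1.00) and as TPM (1.03), and that of -0.88 under median-of-ratios scaling (-1.05).

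SREBF1 stood above SREBF2 in all 4 libraries. The ratio of SREBF1 to SREBF2 was 1.24 for N-scr, 1.45 for H-scr, 2.06 for N-si and 1.69 for H-si. The microRNA genes within their introns, MIR33B in SREBF1 and MIR33A in SREBF2, were listed at 0 in all 4 libraries. Both genes are shorter than a read of 100 bp, and the libraries were made for mRNA. These values therefore do not show whether the microRNAs were expressed.

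The proteases that release SREBP stayed under 2-fold in all 4 contrasts and did not move together. MBTPS1 (ENSG00000140943, chromosome 16, 84087368 to 84150511, minus strand), the site-1 protease, had 61.4 FPKM for N-scr, 79.8 for H-scr, 54.9 for N-si and 84.6 for H-si. It was higher in hypoxia in both kinds of cell, by 0.38 in scrambled cells (interval 0.33 to 0.43) and 0.62 in TET1-si cells (0.57 to 0.67). MBTPS2 (ENSG00000012174, chromosome X, 21857754 to 21903542, plus strand), the site-2 protease, had 15.2 FPKM for N-scr, 11.4 for H-scr, 11.8 for N-si and 11.5 for H-si. N-scr was thus the one library that stood apart for MBTPS2, and the change in hypoxia was -0.41 in scrambled cells (-0.52 to -0.30) and -0.04 in TET1-si cells (-0.16 to 0.08). That last value turned positive under upper-quartile scaling and as TPM, to 0.065 and 0.095. The ratio of MBTPS1 to MBTPS2 was 4.04 for N-scr, 6.98 for H-scr, 4.64 for N-si and 7.35 for H-si, higher in hypoxia in both kinds of cell. YY2 lies within MBTPS2 on the same strand and was at 0.572 FPKM for H-si and 0.941 for H-scr.

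VLDLR, a receptor of the LDL receptor family that binds apolipoprotein E and takes up triglyceride-rich lipoproteins, was the lowest of the 8 genes in all 4 libraries. VLDLR (ENSG00000147852, chromosome 9, 2621834 to 2654480, plus strand) was measured at 1.90 FPKM for N-scr, 6.91 for H-scr, 1.91 for N-si and 3.90 for H-si. The normoxia libraries could not be told apart, with a TET1-si change of 0.0031, a counting interval of -0.20 to 0.20, and a negative sign under median-of-ratios (-0.16) and upper-quartile (-0.11) scaling. In hypoxia the level was 3.64-fold higher in scrambled cells (log2 change 1.81, interval of the ratio 1.70 to 2.03) and 2.05-fold higher in TET1-si cells (log2 change 0.997, 0.86 to 1.21). The latter sits at the 2-fold line and passed it without a pseudocount (1.03), under upper-quartile scaling (1.10) and as TPM (1.14). Under hypoxia VLDLR was lower in TET1-si cells, with a log2 change of -0.81 (-0.95 to -0.70). Its N-scr value rested on approximately 392 reads, the fewest behind any value of the 8 genes.

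**Figure D2:**
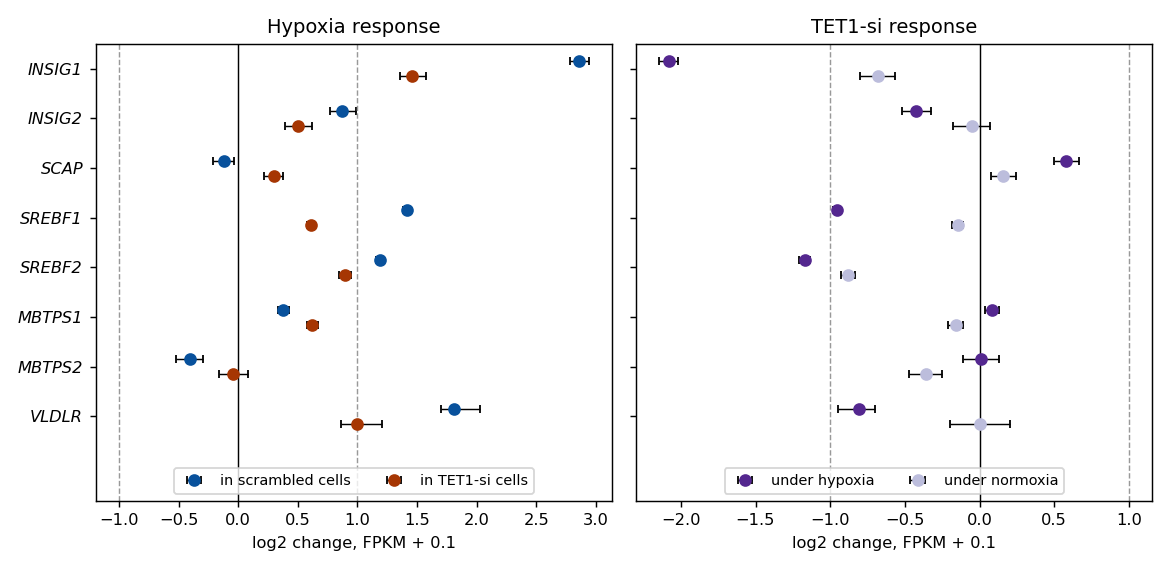
Log2 changes of the 8 genes on the FPKM + 0.1 scale, with the hypoxia response (left; scrambled and TET1-si cells) and the TET1-si response (right; hypoxia and normoxia), and bars for the 95% counting interval of the ratio. Dashed lines stand at 2-fold; INSIG1, SREBF1, SREBF2 and VLDLR pass it in hypoxia in scrambled cells, and INSIG1 and SREBF2 pass it downward with TET1-si under hypoxia.

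The hypoxia responses of the 8 genes were smaller in TET1-si cells for INSIG1, INSIG2, SREBF1, SREBF2 and VLDLR and higher for SCAP, MBTPS1 and MBTPS2. The difference was -0.37 for INSIG2 (normal interval -0.53 to -0.21) and -0.81 for VLDLR (-1.06 to -0.59). For the other 3 genes it was 0.42 for SCAP (0.30 to 0.54), 0.24 for MBTPS1 (0.18 to 0.31) and 0.37 for MBTPS2 (0.21 to 0.53). INSIG1 alone had a difference of -1 or lower, as did 7.86% of all genes, and none of the 8 had a difference of 1 or higher, as did 4.87% of all genes. The intervals cover counting error only, so they do not say whether a second culture would give the same difference.

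The order of the 8 levels within a library changed least at its ends, with SREBF1 first and VLDLR last throughout. INSIG1 took rank 4 in N-scr, rank 3 in H-scr, rank 5 in N-si and rank 4 in H-si. In N-scr the intervals of INSIG1 and SCAP overlapped, as did those of MBTPS2 and INSIG2. In H-si those of SREBF2 and MBTPS1 overlapped. In H-scr all neighbours in the order were separated.

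The study selected TET1-dependent genes by 3 inequalities on FPKM, by which the level in H-scr had to exceed 2 times that in H-si and also exceed that in N-scr, while N-si could not exceed N-scr. These were met by 2 of the 8 genes, INSIG1 and SREBF2, and by 3.84% of all genes. The first inequality compares the same libraries as the TET1-si response under hypoxia, so it adds no separate evidence. The study also drew INSIG1 from genes that met the inequalities in these libraries, so its place here was given beforehand. SREBF1 missed the first inequality with a ratio of 1.94. VLDLR missed it with 1.77 and also missed the third, with a ratio of N-scr to N-si of 0.998.

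The genes on which this machinery acts, or with which it works, were described through 6 lists, with no test of any list. Across the 21 genes of sterol synthesis the hypoxia response of scrambled cells had a median of 2.01, and 20 were at least 2-fold higher and none lower. Of all genes, 12.9% were higher and 4.53% lower in this contrast. In TET1-si cells the median was 0.41, with 3 of the 21 higher and none lower, beside 12.5% of all genes higher and 8.66% lower. The count of 3 higher was thus near the share of all genes. TET1-si under hypoxia was accompanied by a median change of -2.14, with 19 lower and 1 higher, beside 8.35% of all genes lower and 12% higher. Under normoxia the median was -0.47, with 2 in each direction, beside 12.1% of all genes higher and 5.56% lower.

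Among these genes, TM7SF2, a sterol reductase, had 2.40 FPKM for N-scr, 44.01 for H-scr, 5.75 for N-si and 19.5 for H-si. LSS, which closes the ring of the sterol skeleton, stood at 15.7, 207.8, 11.9 and 44.2 FPKM in the same order of libraries. Both were highest in H-scr, as INSIG1 was. CYP51A1, the lanosterol demethylase, had 53.7 FPKM for N-scr, 192.4 for H-scr, 21.9 for N-si and 21.7 for H-si, and ACAT2, which joins acetyl units, had 12.2, 92.1, 13.8 and 11.1. In TET1-si cells their changes in hypoxia were -0.0087 and -0.31, where INSIG1 had 1.46. PMVK, phosphomevalonate kinase, was the exception of the list, with 6.0 FPKM for N-scr, 7.47 for H-scr, 16.7 for N-si, 17.1 for H-si and a TET1-si change of 1.18 under hypoxia. The 3 inequalities above were met by 16 of the 21, and by 3.84% of all genes.

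Across the 14 genes of fatty acid synthesis the median hypoxia response was 1.30 in scrambled cells, with 8 higher and 1 lower. Of all genes, 12.9% were higher and 4.53% lower. In TET1-si cells it was 0.0088, with 2 of the 14 higher and none lower, beside 12.5% and 8.66% of all genes. The count of 2 higher was thus near the share of all genes. Under hypoxia TET1-si was accompanied by a median of -1.48 with 9 lower and none higher, beside 8.35% of all genes lower and 12% higher. Under normoxia the median was 0.06 with 2 in each direction, beside 12.1% of all genes higher and 5.56% lower. SCD, the stearoyl-CoA desaturase, was at 79.5 FPKM for N-scr, 506.3 for H-scr, 14.4 for N-si and 42.2 for H-si, lower in TET1-si cells in both oxygen states. ACSS2, which makes acetyl-CoA from acetate, was at 10.0, 286.0, 28.2 and 53.5 FPKM, and LPIN1, a phosphatidate phosphatase, at 6.55, 51.9, 12.9 and 13.2. Unlike SREBF1, both were higher in TET1-si cells under normoxia, with changes of 1.49 and 0.97. GPAM, which starts glycerolipid synthesis, was lower in hypoxia in scrambled cells, from 10.2 FPKM for N-scr to 3.66 for H-scr.

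The genes that carry INSIG, SCAP and SREBP proteins to transport or destruction behaved otherwise. The 16 genes of sterol-regulated degradation at the endoplasmic reticulum had medians between -0.12 and 0.06 in the 5 comparisons, with at most 1 gene past 2-fold in each.

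The 18 genes of SCAP transport and nuclear SREBP had medians between -0.18 and 0.19, with none past 2-fold in either hypoxia response. SEC24D, a cargo adaptor of the vesicle coat, was at 3.63 FPKM for N-scr, 4.88 for H-scr, 13.7 for N-si and 13.2 for H-si. PGRMC1, which has been described as a binding partner of INSIG1 and SCAP, was at 113.1, 165.2, 91.1 and 64.9 FPKM and was the only gene of this list to meet the 3 inequalities.

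Of the 20 listed lipoprotein receptors, ligands and adaptors beside VLDLR, 17 passed the filter on low values, and they moved in both directions. In hypoxia in scrambled cells 3 were at least 2-fold higher and none lower, against 12.9% and 4.53% of all genes. With TET1-si under hypoxia 2 were higher and 3 lower, against 12% and 8.35% of all genes. LRP8, the receptor closest to VLDLR in structure, was at 43.9 FPKM for N-scr, 42.6 for H-scr, 31.3 for N-si and 10.1 for H-si. LRP8 thus stood 23.1 times above VLDLR for N-scr, 6.16 times for H-scr, 16.4 times for N-si and 2.59 times for H-si. Hypoxia was accompanied by a narrower gap in both kinds of cell.

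APOC1, an apolipoprotein, was highest in H-scr, with 5.09 FPKM for N-scr, 13.9 for H-scr, 1.36 for N-si and 1.84 for H-si. These levels rested on approximately 35, 102, 10 and 13 reads, so the intervals of both TET1-si libraries overlapped. LRP1, a scavenger receptor, was higher in hypoxia in both kinds of cell, with 4.18, 10.9, 3.17 and 9.22 FPKM. SORL1, a sorting receptor, was higher with TET1-si under hypoxia, with 5.57 FPKM for N-scr, 6.84 for H-scr, 11.2 for N-si and 22.7 for H-si and a change of 1.71.

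Of 15 genes of lysosomal release and sterol export, 11 passed the filter, of which 3 passed 2-fold upward in hypoxia in scrambled cells, against 0 in TET1-si cells. LIPA, the lysosomal acid lipase, had 34.9 FPKM for N-scr, 93.8 for H-scr, 17.2 for N-si and 32.3 for H-si. NPC1, which moves cholesterol out of the lysosome, had 30.2, 71.9, 27.8 and 33.1 FPKM. With TET1-si under hypoxia LIPA and NPC1 were the 2 genes of the list past 2-fold downward, and none was higher. Of all genes, 8.35% were lower and 12% higher. OSBPL5, a lipid transfer protein, was higher in hypoxia by 1.44 among scrambled and by 0.98 among TET1-si cells, just under 2-fold, and LIPA by 1.43 and 0.91.

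**Figure D3:**
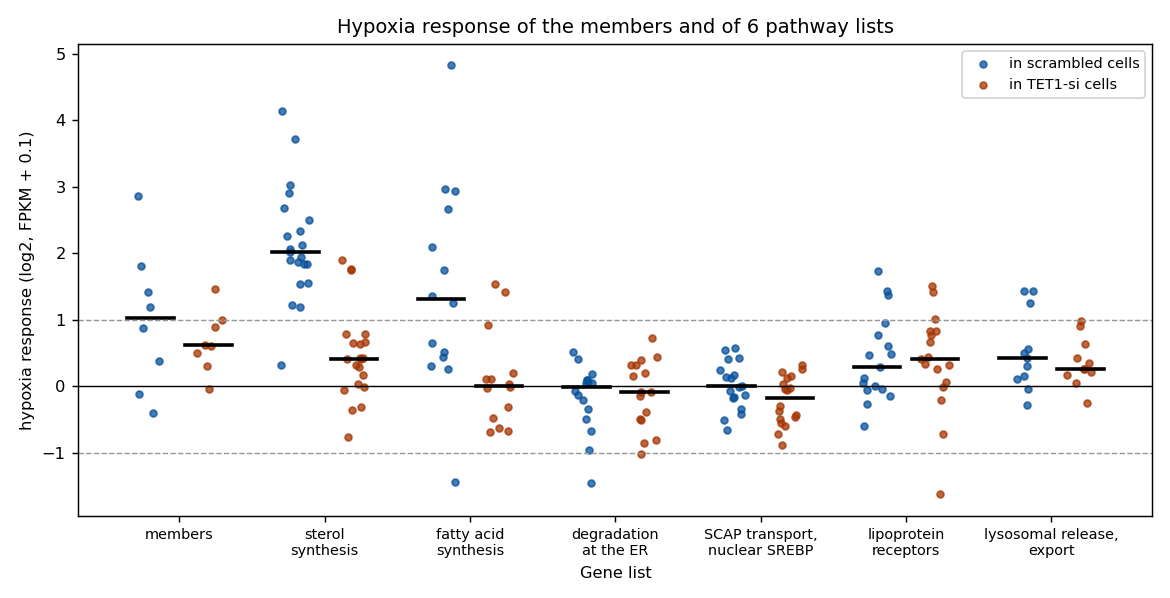
Hypoxia response (log2, FPKM + 0.1) of each of the 8 genes (members) and of each gene of the 6 lists, for scrambled cells and TET1-si cells, with a bar at the median. The median for sterol synthesis is 2.01 for scrambled and 0.41 for TET1-si cells, whereas the lists of degradation and of SCAP transport lie around 0 in both.

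A gene's TET1-si difference can be set beside that of the genes around it. For INSIG1, the 35 nearest protein-coding genes with a mean of at least 1 FPKM (25 before and the 10 left before the chromosome's end) had a median TET1-si change of 0.04 under hypoxia and 0.10 under normoxia. Of those 35, none was as low as INSIG1 under hypoxia and 1 under normoxia. The median over the 550 such genes of chromosome 7 was -0.32 under hypoxia, so the chromosome's median lay below that of the genes next to INSIG1. For SREBF2 the 50 neighbours had medians of -0.13 and -0.03, with 1 and 3 as low as SREBF2. For SREBF1 the 50 neighbours had medians of 0.26 and 0.42, with 2 as low under hypoxia and 8 under normoxia.

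VLDLR lay in a stretch of chromosome 9 that was higher in TET1-si cells. Its 29 neighbours had a median TET1-si change of 0.83 under hypoxia and 0.86 under normoxia, whereas the median of the chromosome's 491 genes was -0.07 and -0.04. VLDLR itself changed by -0.81 and 0.0031, with none of the 29 as low under hypoxia and 5 as low under normoxia. For SCAP, the neighbours' median of 0.21 under hypoxia lay below its own change of 0.58, and 39 of its 50 neighbours were at or below it.

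**Figure D4:**
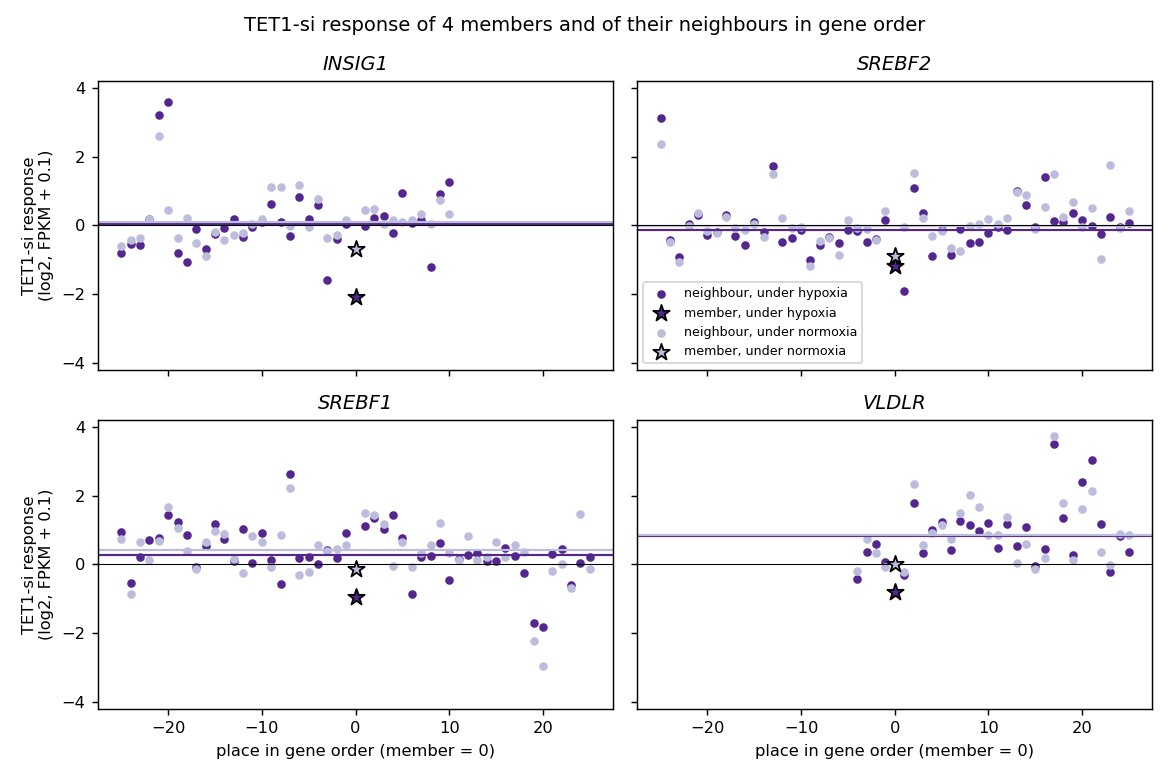
TET1-si response (log2, FPKM + 0.1) under hypoxia and normoxia of INSIG1, SREBF2, SREBF1 and VLDLR (stars) and of the protein-coding genes on both sides in gene order (dots), with lines at the neighbours' medians. Under hypoxia the stars lie below the medians, which are 0.04, -0.13, 0.26 and 0.83.

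Genes whose pattern over the 4 libraries lay nearest to each of the 8 were found by Euclidean distance between centred log2 levels among 9451 other protein-coding genes with a mean of at least 5 FPKM (9452 for VLDLR). Nearest to INSIG1 were IFI6 at a distance of 0.26, OAS2 at 0.30 and DYRK1B at 0.37. IFI6 and OAS2 are interferon-induced genes, and IFI6 had 13.6 FPKM for N-scr, 114.5 for H-scr, 8.06 for N-si and 21.3 for H-si. For SREBF2 they were SCARB1, a receptor for HDL, at 0.18, and CCDC69 and PODXL, both at 0.23. For SREBF1 they were PARP14 at 0.13, RAB43 at 0.15 and RAB4B at 0.16.

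VLDLR lay nearest to BHLHE40, a transcriptional repressor, at 0.06, with 40.7 FPKM for N-scr, 139.6 for H-scr, 38.4 for N-si and 78.5 for H-si, then to SYT17 and DHX58. For INSIG2 the nearest were SLC44A2 at 0.019, LAMB3 and ANKRD13A. CLUAP1, CXorf40B and PPWD1 lay nearest to SCAP, POMGNT1, HS1BP3 and FBXO46 to MBTPS1, and MAN1A2, ATF1 and TMEM120B to MBTPS2. With 4 libraries a likeness of this kind rests on 4 points.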

How the data were processed

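RNA was measured in 4 libraries of FaDu cells. The values are FPKM deposited by the authors, made with TopHat and Cufflinks on hg19 with Ensembl annotations; versions are not given in the sources used here. Libraries were TruSeq mRNA with 100 bp reads, single-end per the labels and paired-end per the study's methods. These are not counts, so count models were not used. Depth was recovered from 4388 genes of 1 exon, whose low values were whole multiples of 1 read within 0.05 for 97% to 98.1%. This gave 22900000 (N-scr), 24500000 (H-scr), 24400000 (N-si) and 22500000 (H-si) reads.

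Approximate reads were FPKM times depth times canonical transcript length (GENCODE v44lift37) less 212 bp. Intervals of ratios are exact (Clopper-Pearson, 95%), those of levels exact Poisson, those of differences of responses normal. The depth search and the recovery of known changes were tested on simulated data. Changes are log2(FPKM + 0.1), which shrinks changes at low levels. Genes counted had a mean of at least 1 FPKM, and 232 rows with repeated IDs were left out. With 1 library a group no test across samples was possible.

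The 8 genes and all lists were chosen with earlier results of these data known. Named beside the 8 were, from each list, the 2 largest rises and falls of at least 2-fold in the hypoxia response in scrambled cells and in the TET1-si response under hypoxia, at a mean of at least 5 FPKM, and for each of the 8 the 3 nearest patterns. Some genes that this rule takes are not reported here. RAI1, YY2, MIR33A and MIR33B were named as overlapping genes. Promoters are RefSeq windows (GRCh38.p14), placed in GRCh37 by exact match. Alternatives were the pseudocount, 3 scalings, the filter and a fold of 1.5. Python 3.11.15, numpy 2.4.6, pandas 2.3.3, scipy 1.17.1 and matplotlib 3.10.9 were used.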

Additional observations from a re-analysis of the deposited data

Results flagged for a closer look

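For 4 of the 8 genes the values of a response had opposite signs in the 2 states compared. With 1 library a group none of these differences was tested against replicates, and for MBTPS2 and VLDLR 1 of the 2 values was so near 0 that no opposite direction is shown. All values are log2(FPKM + 0.1) changes. SCAP in hypoxia changed by -0.12 among scrambled cells and by 0.30 among TET1-si cells. The former was -0.24 under median-of-ratios scaling, -0.078 under upper-quartile scaling and -0.0039 as TPM, the last too near 0 to show a direction. With TET1-si, MBTPS1 changed by -0.16 in normoxia and by 0.084 in hypoxia, and median-of-ratios scaling turned the latter to -0.061. MBTPS2 changed by -0.36 in normoxia and by 0.010 in hypoxia, where the counting interval included 0 and both median-of-ratios and upper-quartile scaling gave a negative value (-0.13 and -0.046). VLDLR changed by 0.0031 in normoxia, where the interval also included 0 and the same scalings gave -0.16 and -0.11, and by -0.81 in hypoxia.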

How the results depend on the processing

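Of 200 values of the 8 genes recomputed under other pseudocounts and scalings, 8 changed direction and 8 changed side of the 2-fold line. The changes of direction concerned SCAP with TET1-si under normoxia (-0.0070), MBTPS1 with TET1-si under hypoxia (-0.061), MBTPS2 in hypoxia in TET1-si cells (0.065 and 0.095) and with TET1-si under hypoxia (-0.13 and -0.046), and VLDLR with TET1-si under normoxia (-0.16 and -0.11). Those past the 2-fold line are given with the genes SREBF1, SREBF2 and VLDLR above. Median-of-ratios scaling moved the median TET1-si change of all genes under hypoxia from 0.10 to -0.031 and under normoxia from 0.15 to -0.0042.

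In TET1-si cells 1 of the 8 genes passed 2-fold upward in hypoxia, and this became 2 without a pseudocount, 3 under upper-quartile scaling, 3 as TPM and 5 at a fold of 1.5, where 12.6%, 14.7%, 15.6% and 23.7% of all genes passed. Lower with TET1-si under hypoxia were 2, against 3 under median-of-ratios and under upper-quartile scaling (10.6% and 9.15% of all genes) and 4 at a fold of 1.5 (16.8%). Under normoxia none was lower, against 1 under median-of-ratios scaling (7.41% of all genes) and 2 at a fold of 1.5 (12%). The difference of hypoxia responses passed the line downward for 1 gene, and for 3 at a fold of 1.5 (16.7% of all genes). In hypoxia in TET1-si cells, a fold of 1.5 gave 8 sterol synthesis genes higher and 1 lower (23.7% and 19% of all genes). With TET1-si under normoxia it gave 9 of them lower (12% of all genes), where a pseudocount of 1 left 1 higher (7.73%). For fatty acid synthesis, a fold of 1.5 gave 3 lower in hypoxia in TET1-si cells (19% of all genes). With TET1-si it gave 1 higher under hypoxia (24.3%) and 5 higher under normoxia (24.7%). For the difference it gave 1 higher (11.1%). A lower fold takes in more genes by construction, and the cause of the other shifts was not tested.

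No paired analysis was possible because each group has 1 library, and no library was left out for the same reason. Among the 8 genes VLDLR had the fewest reads, approximately 392 in N-scr. Fewer lay behind APOC1 (10 to 102), TET1 (11 to 76) and TM7SF2 in N-scr (75).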
